A study of Mus musculus with 12 samples.

Results

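Meiotic entry in fetal germ cells depends on a small set of regulators, and 8 of their genes were examined here in fetal mouse gonads whose somatic cells had been made to express the ovarian transcription factor FOXL2. The genes were Stra8, Bhmg1 (also called Meiosin), Meioc, Ythdc2, Rec8, Dazl, Zglp1 and Figla, taken from a fixed list of gene symbols among the 30702 genes that the array names. A transcript cluster, the array's unit for one locus, carried the symbol of 7 of the 8 genes and no other. The symbol of Zglp1 stood only on a cluster shared by 5 symbols, so no value is given for Zglp1.

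Gonads were taken from mouse embryos 14.5 days after conception (14.5 dpc) and their RNA was hybridised to the 1-colour Affymetrix Mouse Transcriptome Array 1.0, with 4 arrays in each of 3 groups and the gonad pair of 1 embryo on each array. XY FOXL2+ gonads carried the Rosa26-CAG-LSL-Foxl2+/f allele, from which Cre removes a stop cassette, together with Sf1-cre+/Tg. XX control and XY control gonads had 2 unmodified Rosa26 alleles (Rosa26+/+) and also carried Sf1-Cre+/Tg, so the Cre transgene was common to all 3 groups, as was the mixed 129Sv and C57Bl/6J background. Sf1-cre is active in gonadal somatic cells and not in germ cells, where the genes described here are mainly known to act, and the mesonephros had been removed before RNA was extracted.

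In mice, germ cells of the fetal ovary enter meiosis soon after sex determination, while germ cells of the fetal testis are kept out of it until after birth. Retinoic acid and BMP signals from the surroundings lead to expression of STRA8, which pairs with MEIOSIN, the product of Bhmg1, to switch on meiotic genes. MEIOC and YTHDC2 then bind RNA together to end the mitotic programme, REC8 is the cohesin subunit that holds sister chromatids through meiosis, DAZL is an RNA-binding protein that makes germ cells competent to enter it, ZGLP1 is a BMP-induced regulator of oogenic fate, and FIGLA is a helix-loop-helix factor of the oocyte programme.

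The promoters of Stra8, Bhmg1 and Meioc are shown because the signals of these 3 genes differed most between XY FOXL2+ and XY control gonads. Each runs 5′ to 3′ from 250 bases before to 50 bases after the RefSeq gene start in build GRCm38.p6. The Stra8 window is chr6:34920698-34920997 on the plus strand, the Bhmg1 window chr7:19118295-19118594 on the minus strand and the Meioc window chr11:102665335-102665634 on the plus strand. Capitals mark AGGTCA, the repeat unit of sites for nuclear receptors such as the retinoic acid receptors, in Stra8, and a match to CNCCTCAG, a motif reported at promoters bound by STRA8 and MEIOSIN, in Bhmg1.
Stra8: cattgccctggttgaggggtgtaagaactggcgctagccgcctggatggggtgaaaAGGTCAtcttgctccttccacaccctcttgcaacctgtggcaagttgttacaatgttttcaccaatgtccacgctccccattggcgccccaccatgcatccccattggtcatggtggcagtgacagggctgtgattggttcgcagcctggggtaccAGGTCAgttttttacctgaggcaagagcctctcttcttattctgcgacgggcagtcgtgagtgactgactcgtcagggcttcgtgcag
Bhmg1: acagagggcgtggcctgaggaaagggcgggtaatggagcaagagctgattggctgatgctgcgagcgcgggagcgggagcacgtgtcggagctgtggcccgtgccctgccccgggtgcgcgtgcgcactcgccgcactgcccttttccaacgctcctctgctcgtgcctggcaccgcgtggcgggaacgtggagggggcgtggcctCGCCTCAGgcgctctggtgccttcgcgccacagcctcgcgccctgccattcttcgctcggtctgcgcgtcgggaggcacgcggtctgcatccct
Meioc: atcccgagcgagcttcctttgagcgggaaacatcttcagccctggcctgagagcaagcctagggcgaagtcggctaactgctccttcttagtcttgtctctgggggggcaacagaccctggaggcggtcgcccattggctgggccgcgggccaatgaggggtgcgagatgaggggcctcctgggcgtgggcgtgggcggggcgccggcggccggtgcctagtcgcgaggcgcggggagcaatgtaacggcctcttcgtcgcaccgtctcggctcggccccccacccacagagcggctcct
The Stra8 window held AGGTCA at positions -194 and -38 from the start, and the Bhmg1 window held CGCCTCAG at position -44. A promoter window was available for 7 of the 8 genes, Zglp1 included and Ythdc2 not, so these are not the 7 genes measured. On either strand, CNCCTCAG was found in the windows of 3 of the 7 (Bhmg1, Dazl and Figla), against 7.94% of 32851 promoters. AGGTCA was found in 2 of the 7 (Stra8 and Zglp1), against 16.3%, and the E-box CANNTG in 5 of the 7, against 72.3%. The Meioc window held none of the 3 motifs. These matches are a description of the letters in the windows, and the arrays carry no measure of binding.

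Foxl2 and Xist on the arrays were as the labels give genotype and sex. Foxl2 read 7.67, 8.62, 7.18 and 6.72 on the XY FOXL2+ arrays, 8.08, 7.30, 7.14 and 7.39 on the XX control arrays and 5.07, 5.55, 5.44 and 5.33 on the XY control arrays (log2 signal, replicates 1 to 4, as in all lists of 4 values below). Foxl2 was thus higher on every XY FOXL2+ array than on every XY control array (difference 2.20, SE 0.33). No source used here states whether the probes detect the transgene, the endogenous transcript or both. Xist, the RNA of the inactive X chromosome, read 6.35 to 7.87 in XY FOXL2+, 16.19 to 16.34 in XX control and 6.85 to 7.36 in XY control gonads. The germ cell marker Ddx4 read 13.47 or more on all 12 arrays, so that germ cells were represented in every group. Spearman correlations between arrays of a group were 0.981 to 0.991 in XY FOXL2+, 0.992 in XX control and 0.986 to 0.992 in XY control gonads. The files hold no detection calls. Eif2s3y, a Y-linked gene that XX gonads lack, read 5.85 to 6.20 on the XX control arrays, and a signal near 6 can therefore be that of a silent gene.

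Stra8, Bhmg1, Meioc, Ythdc2 and Rec8 were higher in XY FOXL2+ than in XY control gonads, and Dazl and Figla did not pass the test. Of the 7 genes 5 were called higher and none lower, where 2.46% of all 65956 clusters were called higher and 4.67% lower at an adjusted p under 0.05 (limma, Benjamini-Hochberg over all clusters, as for every adjusted p below). The same 5 genes had groups that did not overlap, against 5.23% of all clusters higher and 6.97% lower without overlap. The median difference of the 7 genes was 2.02 on the log2 scale, beside 0.00308 for all clusters. The calls over all clusters, 1621 higher and 3077 lower, became 2184 and 2656 after quantile normalization, under which 5 of the 7 genes were again called. In bulk gonads, fewer cells of a type and less RNA per cell cannot be told apart.

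Stra8, the first of the pair of transcription factors, had a log2 signal of 11.27, 13.34, 12.06 and 11.91 in XY FOXL2+ gonads, 12.18, 12.79, 12.84 and 12.58 in XX control gonads, and 6.24, 6.23, 6.37 and 6.40 in XY control gonads. The XY FOXL2+ arrays all lay far above the XY control arrays. Replicate 2 of XY FOXL2+ lay above every XX control array, and replicates 1, 3 and 4 lay below every one. Stra8 rose by 5.83 in XY FOXL2+ over XY control gonads (SE 0.32, adjusted p = 3.43e-07, n = 4 each). The XY control level of 6.31 ± 0.09 (SD, n = 4) is one at which silent genes read, so the 57.1-fold difference is a lower bound. Against XX control gonads the difference was -0.45 (95% interval -1.15 to 0.25, adjusted p = 0.510).

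Bhmg1, the partner of STRA8, read 9.49, 12.75, 11.79 and 11.35 in XY FOXL2+ gonads, 12.55, 12.38, 12.50 and 12.26 in XX control gonads, and 7.36, 7.46, 7.93 and 7.87 in XY control gonads. Replicate 1 of XY FOXL2+ was the lowest of its group by a wide gap but lay above every XY control array. Bhmg1 rose by 3.69 in XY FOXL2+ over XY control gonads (SE 0.49, adjusted p = 0.000463), a 12.9-fold difference. That fold may be a lower bound, since Xist reached 7.87 on an XY FOXL2+ array. Against XX control gonads Bhmg1 was lower by a mean difference of -1.08, which did not pass the test (95% interval -2.13 to -0.02, adjusted p = 0.257).

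**Figure D1:**
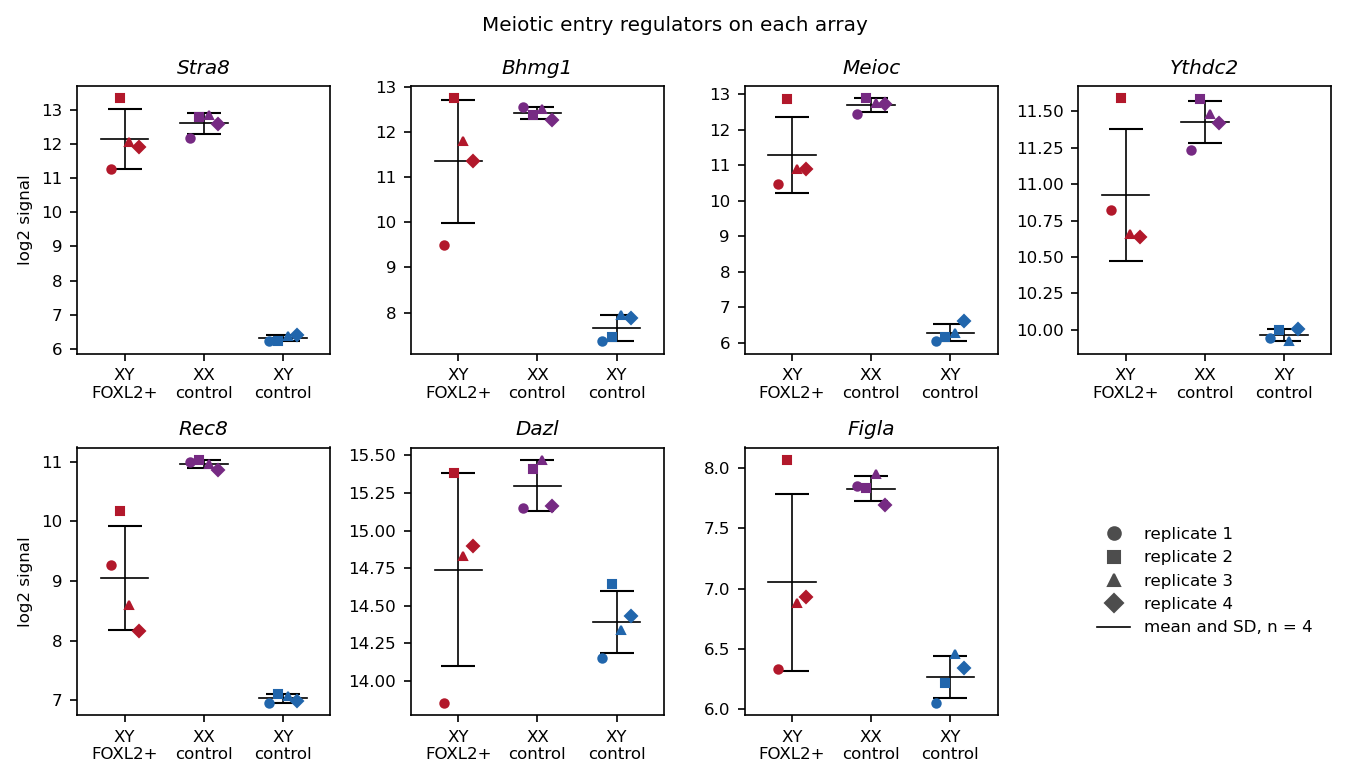
Log2 signal (vertical axes, each on its own range) of the 7 genes in XY FOXL2+, XX control and XY control gonads. Symbols are single arrays by replicate number, and bars give the mean and SD of 4 arrays. For Stra8, Bhmg1, Meioc, Ythdc2 and Rec8 every XY FOXL2+ array lies above every XY control array, while for Dazl and Figla these groups overlap.

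Meioc, whose product works on RNA with YTHDC2, read 10.47, 12.85, 10.90 and 10.90 in XY FOXL2+ gonads, 12.44, 12.88, 12.74 and 12.71 in XX control gonads, and 6.06, 6.17, 6.29 and 6.62 in XY control gonads. Replicate 2 of XY FOXL2+ lay within the XX control range, and the other 3 XY FOXL2+ arrays lay below it and far above XY control. Meioc rose by 5.00 in XY FOXL2+ over XY control gonads (SE 0.39, adjusted p = 5.90e-06), and the 31.9-fold difference is a lower bound, since the XY control mean of 6.28 ± 0.24 (SD, n = 4) is again a level at which silent genes read. Against XX control gonads it was at -1.42 (95% interval -2.25 to -0.58, adjusted p = 0.0520).

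Ythdc2, an RNA helicase that reads methylated adenosine, had a signal in all groups, with 10.82, 11.59, 10.66 and 10.63 in XY FOXL2+ gonads, 11.24, 11.58, 11.48 and 11.42 in XX control gonads, and 9.94, 10.00, 9.92 and 10.00 in XY control gonads. The XY FOXL2+ arrays were all above XY control and, except for replicate 2, all below XX control. Its rise in XY FOXL2+ over XY control gonads was small in size, at 0.96 (SE 0.18, adjusted p = 0.00521, 1.95-fold). Against XX control gonads the difference was -0.50 (95% interval -0.89 to -0.12, adjusted p = 0.132).

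Rec8 was the one gene of the 7 that separated all 3 groups. It read 9.27, 10.17, 8.60 and 8.17 in XY FOXL2+ gonads, 11.00, 11.02, 10.97 and 10.86 in XX control gonads, and 6.96, 7.12, 7.07 and 6.99 in XY control gonads. Each XY FOXL2+ array lay between the highest XY control array and the lowest XX control array. Rec8 rose by 2.02 in XY FOXL2+ over XY control gonads (SE 0.31, adjusted p = 0.00147, 4.05-fold) and fell by 1.91 in XY FOXL2+ against XX control gonads (SE 0.31, adjusted p = 0.00337, 3.76-fold lower). The 4.05-fold difference may be a lower bound, since Xist read as high on XY control arrays as Rec8 did.

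Dazl, which licenses germ cells for meiosis in both sexes, had high signals everywhere, with 13.85, 15.38, 14.83 and 14.90 in XY FOXL2+ gonads, 15.15, 15.41, 15.47 and 15.16 in XX control gonads, and 14.15, 14.64, 14.34 and 14.43 in XY control gonads. Replicate 1 of XY FOXL2+ was below every XY control array and the other 3 were above them all. The difference between XY FOXL2+ and XY control gonads was 0.35 (95% interval -0.18 to 0.88, adjusted p = 0.478). Without XY FOXL2+ replicate 1 it was 0.65 with an adjusted p of 0.0200, and without replicate 2 it was 0.14 and did not pass.

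Figla, needed for the first follicles and the zona pellucida genes, read 6.33, 8.07, 6.88 and 6.93 in XY FOXL2+ gonads, 7.85, 7.83, 7.95 and 7.69 in XX control gonads, and 6.05, 6.21, 6.46 and 6.34 in XY control gonads. Replicate 1 of XY FOXL2+ fell inside the XY control range, replicate 2 lay above all XX control arrays, and the other 2 lay between the groups. The difference between XY FOXL2+ and XY control gonads was 0.78 (95% interval 0.21 to 1.36, adjusted p = 0.107). It passed without XY FOXL2+ replicate 1 (1.03, adjusted p = 0.0189) and with array weights (0.74, adjusted p = 0.0415). Without XY FOXL2+ replicate 2 the difference was 0.45 (adjusted p = 0.110).

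All 7 genes were higher in XX control than in XY control gonads, where 7.17% of all clusters were called higher and 10.2% lower, and none of the 7 overlapped between these groups, against 10.5% of all clusters higher and 14.8% lower without overlap. The differences were 6.41 for Meioc, 6.29 for Stra8, 4.77 for Bhmg1, 3.93 for Rec8, 1.56 for Figla, 1.46 for Ythdc2 and 0.91 for Dazl. The adjusted p-values lay between 1.34e-07 for Stra8 and 0.0200 for Dazl. The call of Dazl was lost when XY control replicate 1 (adjusted p = 0.0604) or 3 (0.0521), or XX control replicate 2 (0.0560) or 3 (0.0581), was left out. The calls over all clusters, 4727 higher and 6732 lower, became 6116 and 5385 after quantile normalization, with all 7 genes still called.

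The place of XY FOXL2+ gonads between the controls was expressed for each gene as a percentage of the log2 difference between them. Setting the XY control mean of each gene at 0 and its XX control mean at 100%, the XY FOXL2+ mean stood at 92.8% for Stra8, with single arrays from 78.9% to 112%. It stood at 77.9% for Meioc (65.2% to 102%), 77.4% for Bhmg1 (38.6% to 107%) and 65.6% for Ythdc2 (45.7% to 111%). Lower places were 51.4% for Rec8 (28.9% to 79.8%), 50.2% for Figla (3.97% to 115%) and 38.6% for Dazl (-59.0% to 109%). These are shares on the log2 scale. Without the log, the XY FOXL2+ signal as a ratio to XX control was 0.73 for Stra8, 0.37 for Meioc, 0.47 for Bhmg1 and 0.70 for Ythdc2. It was 0.27 for Rec8, 0.58 for Figla and 0.68 for Dazl. The 0 point of Stra8, Meioc and Figla is at a level at which silent genes read. The array ranges of all 7 genes overlap one another, no difference between genes was tested, and both differences behind each percentage rest on the same XY control arrays.

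**Figure D2:**
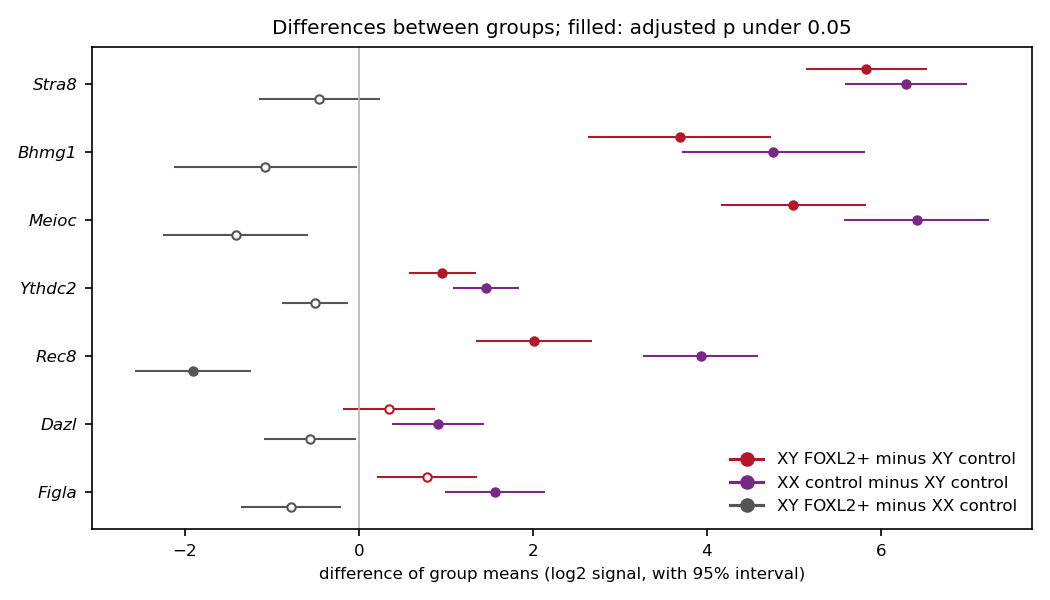
Differences of group means (horizontal axis, log2 signal, with 95% intervals) for the 7 genes in XY FOXL2+ minus XY control, XX control minus XY control, and XY FOXL2+ minus XX control gonads. Filled points have an adjusted p under 0.05. Rec8 alone has a filled point in XY FOXL2+ minus XX control, at -1.91.

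Against XX control gonads, Rec8 was the only one of the 7 genes called lower in XY FOXL2+ gonads and none was called higher, where 2.64% of all clusters were called lower and 2.87% higher. Rec8 was also the only one without overlap, against 4.82% of all clusters lower and 6.63% higher without overlap. All 7 mean differences were below 0, with a median of -0.78 beside 0.03 for all clusters. This result hung on XY FOXL2+ replicate 2. Without it all 7 genes were called lower than in XX control gonads, with Stra8 at -0.85 (adjusted p = 0.0159), Bhmg1 at -1.54 (0.0357), Meioc at -1.94 (2.70e-05), Ythdc2 at -0.73 (0.000625), Dazl at -0.77 (0.0492) and Figla at -1.12 (0.000535). Rec8 was called lower whichever array was left out, with adjusted p-values from 3.27e-05 to 0.0139.

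The 4 XY FOXL2+ gonads differed among themselves more than the control gonads did. The median SD of the 7 genes was 0.87 in XY FOXL2+, 0.14 in XX control and 0.17 in XY control gonads, beside 0.16, 0.12 and 0.13 over all clusters in the same groups. Replicate 2 had the highest XY FOXL2+ signal for 7 of 7 genes. Replicate 1 had the lowest for 5 genes, and replicate 4 for Ythdc2 and Rec8. Replicates 1, 3 and 4 were each below every XX control array for 7 of 7 genes, and replicate 2 was above every XX control array for 4, within their range for 2 and below it for Rec8 alone.

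Rec8 and Ythdc2 followed another order over these 4 gonads than the other 5 genes. Their signals were highest in replicate 2, then in 1, 3 and 4, the same order as that of Foxl2. Of 5 measured erythroid genes, Slc4a1 (11.09, 13.01, 9.56 and 8.15) and Alas2 (10.36, 12.22, 10.05 and 9.73) also had this order. Their ranges were wider than those of Ythdc2 and Rec8. Hbb-bh1 (6.59, 6.79, 6.10 and 5.85) had this order as well. Hbb-y (15.78, 15.42, 14.20 and 13.95) and Hba-x (8.36, 7.91, 7.26 and 7.43) were highest in replicate 1. In XY control gonads too, these 3 globin genes were higher in replicates 1 and 2 than in 3 and 4. The mean of 9 fetal granulosa cell markers, Foxl2 among them, was 9.09, 9.81, 8.04 and 8.01 in XY FOXL2+ gonads, against 10.06 to 10.40 in XX control and 7.51 to 7.58 in XY control gonads. The mean of the 3 germ cell markers Ddx4, Mael and Stk31 was 12.32, 14.13, 13.48 and 13.71 in XY FOXL2+ gonads, with replicate 1 lowest, as it was for Stra8, Bhmg1, Meioc, Dazl and Figla. With 4 gonads no relation between these values was tested.

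**Figure D3:**
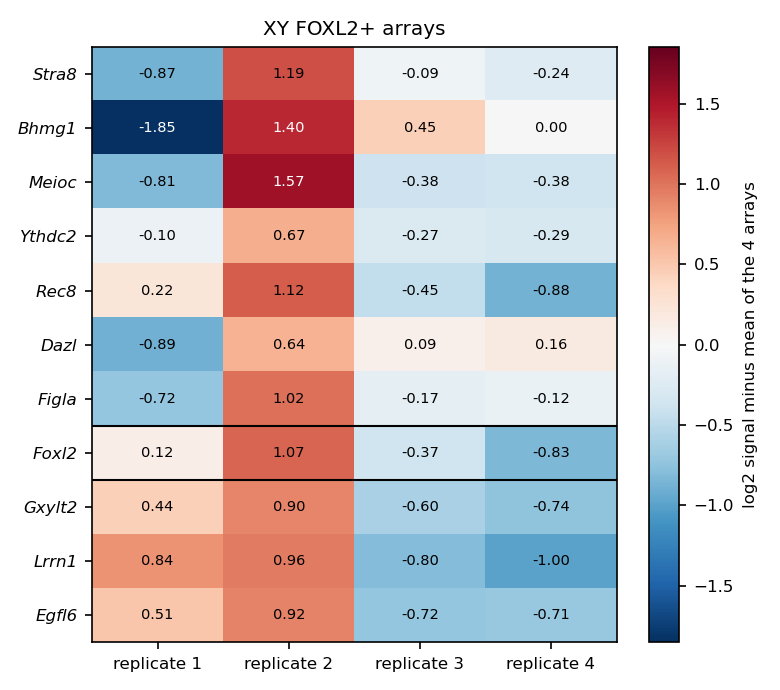
Log2 signal on each of the 4 XY FOXL2+ arrays minus the mean of those arrays (colour and printed value) for the 7 genes, for Foxl2, and for the 3 genes nearest to Rec8 over the 12 arrays. Replicate 2 is highest in every row, and replicate 1 is below 0 for 6 of the 7 genes and above 0 for Rec8, Foxl2 and the 3 nearest genes.

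Each of the 7 genes but Dazl, whose group means differed by less than 1, was set beside the genes whose 12 values, centred on their own mean, were nearest to its own by root-mean-square difference. Stra8 and Meioc were near each other (0.47), and M1ap, needed for meiosis in the male germ line, was nearest to Meioc (0.40). Bhmg1 lay nearest to Meiob (0.38), which acts in meiotic recombination, and was also close to the meiotic cohesin gene Smc1b (0.41). Ythdc2 lay nearest to the DNA repair gene Brca2 (0.12), and Figla to the RNA-editing gene Adarb1 (0.13). Rec8 lay nearest to Gxylt2 (0.24), Lrrn1 (0.25) and Egfl6 (0.31). Gxylt2 read 9.40, 9.86, 8.36 and 8.22 in XY FOXL2+ gonads, with means of 8.96 in XY FOXL2+, 10.90 in XX control and 7.37 in XY control gonads. Small differences come easily to genes with a small range, so these values are comparable only among genes near the same member.

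The 7 genes were next given relative to germ cell markers, as the log2 signal minus the mean of Ddx4, Mael and Stk31 on the same array. These 3 markers did not pass the test in any of the 3 comparisons, which with 4 arrays in a group does not show that they were equal. In XX over XY control gonads the differences were 0.82 for Stk31, 0.42 for Ddx4 and -0.01 for Mael. Mael alone ran from 13.34 to 15.18 in XY control gonads. The mean of the 3 markers was 12.32 to 14.13 in XY FOXL2+, 13.70 to 14.09 in XX control and 13.07 to 14.27 in XY control gonads. On this scale Stra8 was higher in XY FOXL2+ than in XY control gonads by 5.98, Meioc by 5.14, Bhmg1 by 3.84, Rec8 by 2.16, Ythdc2 by 1.11 and Figla by 0.93. The groups did not overlap for these 6 genes (exact permutation test, two-sided p = 0.0286 each, the smallest that 4 against 4 arrays allow), against 0.644% of all clusters higher and 0.402% lower without overlap on this scale. The limma fit on this scale did not call Ythdc2 or Figla. Dazl overlapped (0.50, exact permutation p = 0.143), but it did not overlap with Ddx4 alone as the scale (0.51), with all 11 measured germ cell markers (0.85) or without XY control replicate 2 (0.69). The 11 markers include Dnd1, Nanos3 and Sall4, which were themselves called lower in XY FOXL2+ than in XY control gonads. That lowers the scale in XY FOXL2+ gonads and enlarges the difference of 0.85.

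On the same scale XY FOXL2+ and XX control gonads overlapped for all 7 genes, where 3.56% of all clusters were higher and 0.118% lower without overlap. The differences were -1.36 for Rec8, -0.86 for Meioc, -0.52 for Bhmg1, -0.23 for Figla, -0.01 for Dazl, 0.05 for Ythdc2 and 0.10 for Stra8. The exact permutation p was 0.114 for Rec8 and 0.0571 for Meioc, with the others between 0.257 and 0.971. Among XY FOXL2+ arrays the SD was larger on this scale than on the log2 signal for Rec8 (1.09 against 0.87) and Ythdc2 (0.69 against 0.45). For the other genes the SD was smaller on this scale. Rec8 did not overlap between XY FOXL2+ and XX control gonads when Ddx4 alone or all 11 measured germ cell markers served as the scale, or without XY FOXL2+ replicate 1. Meioc did not overlap without XY FOXL2+ replicate 2 or XX control replicate 3.

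**Figure D4:**
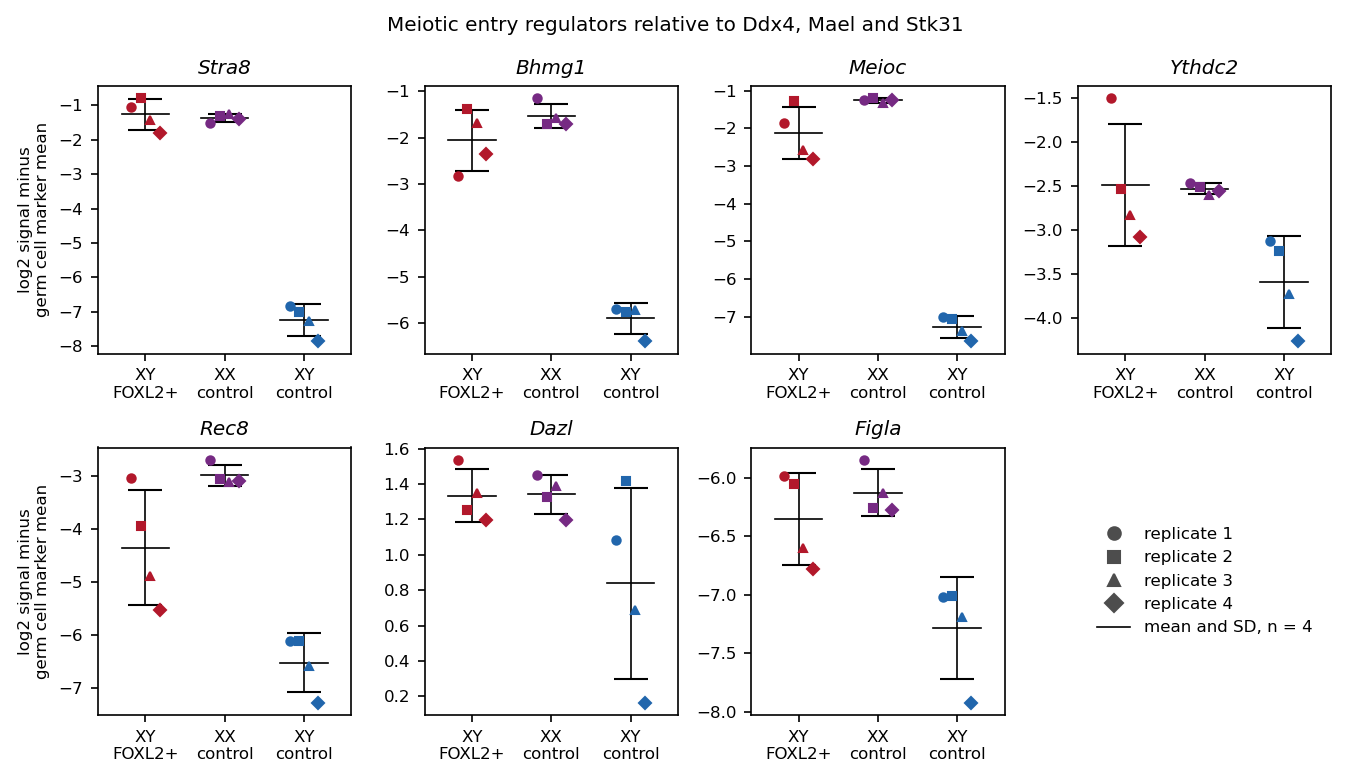
Log2 signal minus the mean log2 signal of Ddx4, Mael and Stk31 on the same array (vertical axes, each on its own range) in XY FOXL2+, XX control and XY control gonads. Symbols are single arrays, and bars give the mean and SD of 4 arrays. On this scale of 3 markers XY FOXL2+ arrays lie above all XY control arrays for every gene but Dazl, and overlap XX control arrays for all 7. With Ddx4 alone or all 11 germ cell markers as the scale, Dazl also separates from XY control and Rec8 from XX control arrays. The 11 include Dnd1, Nanos3 and Sall4, which were themselves lower in XY FOXL2+ than in XY control gonads.

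Genes of meiotic prophase, which act downstream of entry, were mostly higher in XY FOXL2+ than in XY control gonads. Of 30 listed genes 28 were measured, and 20 were called higher and none lower, with a median difference of 1.61. Over all clusters 2.46% were called higher and 4.67% lower in this comparison, shares that also stand beside each count of called genes below. The count of 20 became 14 when only these 2 groups entered the fit. Without XY FOXL2+ replicate 1 it was 26, and it ranged from 16 to 20 without any other single array. M1ap rose by 4.46 (SE 0.46, adjusted p = 5.97e-05), Meiob by 3.18 or more (0.000439), since it read 5.17 to 5.45 in XY control gonads, below the level of silent Eif2s3y, and Ugt8a, an enzyme of germ cell glycolipid synthesis, by 2.81 (0.000738). Among those that did not pass, Sycp2, a component of the synaptonemal complex, was at 1.58 (adjusted p = 0.0802), Tex15 at 1.24 (0.215) and 4930447C04Rik, also called Six6os1, at 0.45 (0.620). In XX over XY control gonads 26 of the 28 were called higher, against 7.17% of all clusters. In XY FOXL2+ against XX control gonads Msh4, named after its value was seen as the only gene called, was lower by a difference of -1.06 (adjusted p = 0.0264). That call ended without any one of XY FOXL2+ replicates 3 and 4 and XX control replicates 2, 3 and 4, with adjusted p-values of 0.0601 to 0.0805, and with only these 2 groups in the fit (0.0779).

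Among 12 cohesin subunits and their regulators, beside REC8, 3 were called higher in XY FOXL2+ than in XY control gonads and 1 was called lower (median difference 0.14). Smc1b, the meiotic form of the SMC1 subunit, read 13.42, 15.83, 14.65 and 14.64 in XY FOXL2+ gonads. Its means were 14.64 ± 0.99 in XY FOXL2+, 15.57 ± 0.11 in XX control and 10.96 ± 0.44 in XY control gonads (SD, n = 4 each), and it rose by 3.68 over XY control (adjusted p = 5.92e-05). Stag3, the meiotic partner of REC8, was higher by 1.58 (adjusted p = 0.0242), a call that ended with only these 2 groups in the fit (0.0904) or without XY control replicate 1 (0.0719), 2 (0.0536) or 3 (0.0665). Pds5a, which is not specific to meiosis, was higher by 0.42 (0.0248), and this call also ended with only the 2 groups (0.0846), without XY control replicate 3 (0.0818) or 4 (0.0758), or without XY FOXL2+ replicate 2 (0.0702). Rad21, the mitotic counterpart of Rec8 and named after its value was seen as the only one called lower, was at -0.45 (adjusted p = 0.0332). This call ended without any one of XY FOXL2+ replicates 2, 3 and 4, XX control replicate 4 and the 4 XY control arrays, with adjusted p-values of 0.0511 to 0.0910, and with only the 2 groups in the fit (0.0981). The general subunits Smc3 (0.43, adjusted p = 0.0515), Stag2 (0.03, 0.921) and the regulator Pds5b (0.08, 0.624) did not pass.

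Among RNA-binding partners and readers of the entry programme 12 of 14 listed genes were measured, and 2 were higher and none lower in XY FOXL2+ than in XY control gonads (median difference -0.05). Rbm46, an RNA-binding protein that works with MEIOC and YTHDC2, was higher by 1.13 (SE 0.24, adjusted p = 0.0119). Boll, a relative of Dazl, was higher by 1.66 (SE 0.37, adjusted p = 0.0150), a call that ended with only the 2 groups in the fit (0.0644). Mettl14, a subunit of the enzyme that methylates adenosine in RNA, was at 0.26 (0.0962). Ythdc1, a nuclear reader of methylated adenosine, was at -0.07 (0.644), the translational repressor Pum2 at 0.03 (0.911), and Ccna2, the cyclin whose RNA MEIOC and YTHDC2 are known to lower, at -0.04 (0.920).

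Of 14 genes of the oocyte programme that accompany Figla, 1 was higher and none lower in XY FOXL2+ than in XY control gonads (median difference 0.04). The count of higher genes became 3 without XY FOXL2+ replicate 1, and 2 without replicate 2, with quantile normalization or with array weights. Under quantile normalization Zp1 was called lower (-0.22, adjusted p = 0.0300). The gene called higher was Sohlh2, a helix-loop-helix factor of early oocytes, at 11.58 ± 0.64 in XY FOXL2+, 12.76 ± 0.34 in XX control and 9.36 ± 0.72 in XY control gonads (SD, n = 4 each). It rose by 2.23 (SE 0.36, adjusted p = 0.00207), and its adjusted p stayed between 0.000846 and 0.00946 when single arrays were left out. The other genes named by the same rule did not pass. Ybx2, which stores oocyte RNA, was at 0.54 (adjusted p = 0.0739), the ovarian cofactor Taf4b at 0.36 (0.528), the maternal gene Nlrp5 at -0.05 (0.904) and the zona pellucida gene Zp1 at -0.20 (0.0578). The mean log2 signal of the 14 genes was 6.43 to 6.74 in XY FOXL2+, 6.65 to 6.73 in XX control and 6.31 to 6.45 in XY control gonads. This mean mixes unlike genes. Sohlh2, Taf4b, Ybx2 and Nlrp5 had means of 7.78 or more in every group. The other genes of the list had group means of 4.32 to 6.56, near or below the level of silent genes.

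**Figure D5:**
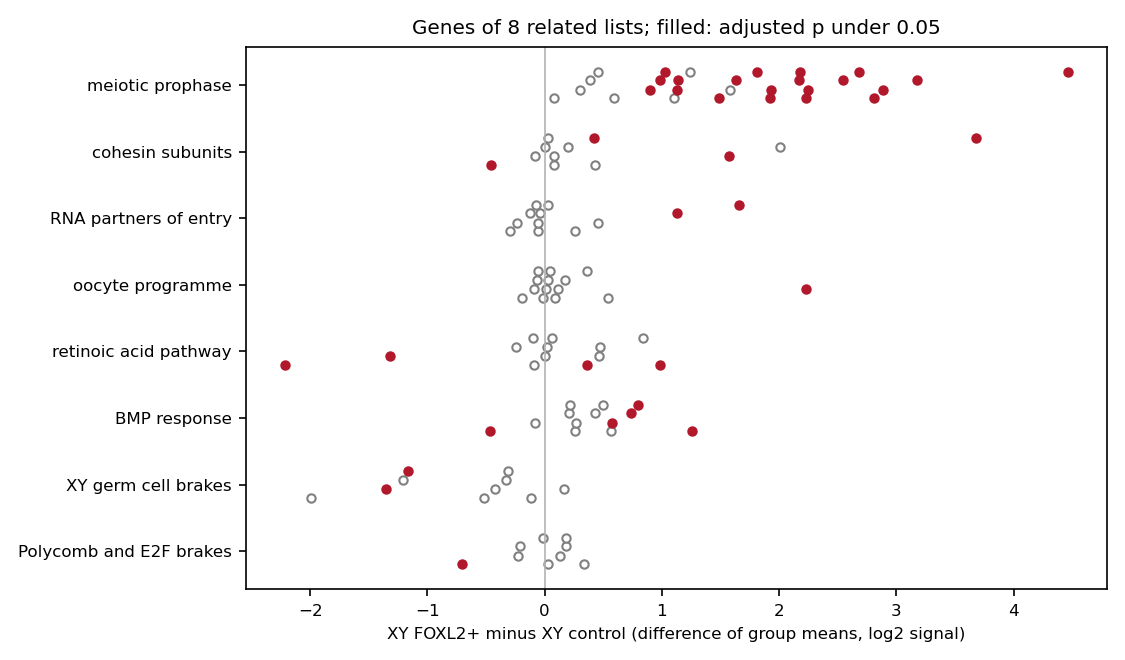
Difference of group means, XY FOXL2+ minus XY control (horizontal axis, log2 signal), for each measured gene of 8 lists related to meiotic entry. Filled points have an adjusted p under 0.05. Of the meiotic prophase genes 20 of 28 are filled and all of these are above 0, while the other lists hold at most 5 filled points each.

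Signals upstream of Stra8 moved in part. Among 13 genes of the retinoic acid pathway 2 were called higher in XY FOXL2+ than in XY control gonads and 2 were called lower (median difference 0.02). Cyp26b1, which degrades retinoic acid in the fetal testis, averaged 7.86 ± 0.61 in XY FOXL2+, 6.91 ± 0.17 in XX control and 10.07 ± 0.17 in XY control gonads (SD, n = 4 each), and fell by 2.21 against XY control (adjusted p = 8.08e-05). It was higher than in XX control gonads by 0.95 (adjusted p = 0.0325), although the 2 groups overlapped. Aldh1a1, an enzyme of retinoic acid synthesis, fell by 1.32 (1.33e-05), and Rarb, a receptor that retinoic acid itself induces, rose by 0.99 (7.12e-06) and was also higher than in XX control gonads, by 0.58 (adjusted p = 0.00114). Rdh10, an enzyme of the step before and named after its value was seen as the other gene called higher, was at 0.36 (0.0225), a call that ended without XY FOXL2+ replicate 2 (0.0558) or XY control replicate 1 (0.0714), 3 (0.0572) or 4 (0.0615), or with only the 2 groups in the fit (0.0849). Aldh1a2, the main enzyme of synthesis in the neighbouring mesonephros, was at 0.47 (0.228), the receptor Rara at -0.24 (0.0699) and the binding protein Crabp1 at 0.84 (0.0867).

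Of 13 genes of the BMP pathway and its response, 4 were called higher in XY FOXL2+ than in XY control gonads and 1 was called lower (median difference 0.43). The ligand Bmp2, which fetal granulosa cells make, read 6.53 ± 0.23 in XY FOXL2+, 7.61 ± 0.14 in XX control and 5.79 ± 0.03 in XY control gonads (SD, n = 4 each). It was higher than in XY control gonads by 0.73 (adjusted p = 0.00114) and lower than in XX control gonads, at -1.08 (adjusted p = 0.000188). The BMP response gene Id2 rose by 1.25 (0.00142) and the signal transducer Smad5 by 0.57 (0.00650). The remaining called genes were named after their values were seen. Id3, a response gene like Id2, rose by 0.80 (0.00688), and Smad7, an inhibitor of the pathway, was at -0.47 (0.0396), a call that held without XY FOXL2+ replicate 3 (0.0189) or 4 (0.0457) and ended without any one of the other 10 arrays (0.0516 to 0.105). It also ended with quantile normalization (-0.37, 0.116) and with only the 2 groups in the fit (0.121). The receptor Bmpr1a was at 0.21 (0.142), Id1 at 0.22 (0.396) and the inhibitory Smad6 at 0.27 (0.422).

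Genes tied to the block on meiosis in the testis were lower in part. Of 10 genes of male germ cell differentiation and Nodal signalling 2 were lower and none higher in XY FOXL2+ than in XY control gonads (median difference -0.47). In XX against XY control gonads 8 were lower, where 10.2% of all clusters were called lower. Nanos2, which keeps XY germ cells out of meiosis, averaged 6.09 ± 0.64 in XY FOXL2+, 5.45 ± 0.21 in XX control and 7.44 ± 0.43 in XY control gonads (SD, n = 4 each), and fell by 1.35 against XY control (adjusted p = 0.00997). Lefty2, a target and inhibitor of Nodal, fell by 1.16 (0.00486). Piwil4, of the fetal piRNA pathway, was at -1.99 (0.0698), Tdrd9 of the same pathway at -1.21 (0.281) and the transcription factor Dmrt1 at -0.42 (0.265). Of 9 Polycomb and E2F repressors of meiotic genes 1 was lower and none higher (median difference 0.03). This was E2f6, at 9.46 ± 0.18 in XY FOXL2+, 9.35 ± 0.08 in XX control and 10.17 ± 0.13 in XY control gonads (SD, n = 4 each), which fell by 0.71 (adjusted p = 0.00130). Its partners Pcgf6 (0.34, 0.0973), Mga (-0.21, 0.258) and Rnf2 (-0.23, 0.273) did not pass, nor did Ezh2 (0.13, 0.476).

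Markers of the cell types in the gonad differed between the groups as well. Of 11 measured germ cell markers Dnd1 (-0.89), Nanos3 (-0.87) and Sall4 (-0.73) were lower and none was higher in XY FOXL2+ than in XY control gonads, and the mean of the 11 was 9.40 to 10.44 in XY FOXL2+, 9.92 to 10.37 in XX control and 10.22 to 11.05 in XY control gonads. Of 10 Sertoli cell markers 8 were lower, with means of 8.82 to 10.40 in XY FOXL2+, 8.38 to 8.46 in XX control and 11.75 to 12.03 in XY control gonads. All 4 measured fetal Leydig cell markers were lower, with means of 7.91 to 11.17 in XY FOXL2+, 7.83 to 8.07 in XX control and 15.78 to 16.17 in XY control gonads. Of 9 fetal granulosa cell markers Fst (2.80), Runx1 (1.22) and Bmp2 (0.73) were higher, as was Foxl2 (2.20), and none was lower. Foxl2 is the gene placed in the allele of XY FOXL2+ gonads, so its rise may follow from the design alone. Macrophage and leukocyte markers were higher for 4 of 6, with means of 7.28 to 7.38 in XY FOXL2+, 6.92 to 7.14 in XX control and 6.83 to 7.08 in XY control gonads, and endothelial markers for 2 of 6. Of 5 measured markers of the mesonephric duct and tubule Calb1 (2.77) was higher and Lhx1 (-0.60) and Ret (-0.77) were lower. Pax8 did not pass (0.51, adjusted p = 0.131), but its groups did not overlap, at 7.17 to 7.52 in XY FOXL2+, 7.71 to 8.66 in XX control and 6.56 to 7.08 in XY control gonads. Pax2 read 4.80 to 4.96 over the 12 arrays, below the level of Y-linked genes in XX control gonads. None of 5 measured erythroid markers was called. The part of these cell types in the differences of the 7 genes was not tested, beyond the values relative to germ cell markers above.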

How the data were processed

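The authors deposited 1 table of summarized log-scale signals for 12 arrays, here taken as log2 because they span 2.60 to 19.49 with array medians of 6.15 to 6.30. How the authors background-corrected and normalized these log2 values before they were deposited, and with which log base, is not stated in the labels, and another base would rescale every difference. Per the labels' protocols, 100 ng of RNA from 1 gonad pair was amplified and labelled with the WT Plus kit. Of 72688 entries 6732 control probe sets were left out and 65956 clusters were tested without a filter on signal. Symbols came from the platform annotation: 31258 clusters had 1 symbol, 1492 had several and were left unnamed, and 33206 were unlisted or unnamed. RefSeq updated 1152 older symbols, among them those of Bhmg1 and Meioc. A gene with several clusters was represented by that of highest mean.

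Groups were taken from the sample titles. The test was that of limma 3.58.1 under R 4.3.3 (lmFit, eBayes with an intensity trend, two-sided) in 1 fit over the 12 arrays, which leaves 9 residual degrees of freedom, with Benjamini-Hochberg adjustment over all clusters and a threshold of 0.05. The fit was tested on simulated data. The number of arrays limits the precision. Values relative to germ cell markers subtract the mean of 3 of 4 chosen markers, since Gcna had no cluster of its own. This gives all clusters a shared error, so the planned limma fit, which called 4, 4 and 0 of the 7 genes in XY FOXL2+ minus XY control, XX minus XY control and XY FOXL2+ minus XX control, was replaced by an exact permutation test for each gene, with 70 assignments. The genes examined, the gene lists and the tests were chosen with earlier results of these data known. Of each list the text names the 3 genes with the lowest adjusted p in XY FOXL2+ minus XY control and up to 3 that did not pass with the highest signal, and for each examined gene whose group means differ by at least 1 it draws on the 3 nearest genes. Alternatives were quantile normalization, a fit of only the 2 groups compared, no intensity trend, array weights, a filter at the median signal, the replicate number as a block, and each array left out in turn.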

Additional observations from a re-analysis of the deposited data

Results flagged for a closer look

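Of 54 groups of 4 arrays examined for a single array far from the rest, 3 were picked out by Dixon's ratio, the gap to the nearest array over the range of the group, above its critical value at the 95% level. Chance picks about 1 in 20 such groups. Mael, a germ cell marker, had a ratio of 0.963 in XX control gonads, with replicate 1 at 13.98 and the other arrays at 14.23 to 14.24. Bhmg1 relative to the germ cell markers had a ratio of 0.916 in XY control gonads, with replicate 4 at -6.40 and the others at -5.76 to -5.71. Rec8 on the same scale had a ratio of 0.876 in XX control gonads, with replicate 1 at -2.70 and the others at -3.11 to -3.06. Mael is part of that scale. The causes were not tested.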

How the results depend on the processing

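No result changed direction among those called. In XY FOXL2+ minus XY control, 5 of the 7 genes passed under every planned setting but array weights (6) and the omission of XY FOXL2+ replicate 1, and single omissions gave 5 to 7. The clusters called there were 809 higher and 1891 lower with only the 2 groups compared, and 998 to 1938 higher and 2126 to 3670 lower with single arrays left out. In XX minus XY control, single omissions gave 6 to 7 of the 7 genes, 3784 to 5565 clusters higher and 5188 to 8149 lower. In XY FOXL2+ minus XX control, 1 of the 7 genes (Rec8) was called; this became 2 with quantile normalization, with clusters above the median signal only and with the replicate block, Meioc being added at adjusted p-values of 0.0471, 0.0371 and 0.0455, and 4 with array weights, which added Meioc (0.00371), Ythdc2 (0.0141) and Figla (0.0221). Single omissions gave 1 to 7. Clusters there were 1891 higher and 1744 lower, 944 and 972 with only the 2 groups compared, 3668 and 3084 with array weights, and 980 to 2967 and 1032 to 3025 with single omissions. Relative to the germ cell markers, the genes without overlap between XY FOXL2+ and XX control gonads numbered 1 with Ddx4 alone, 1 with all germ cell markers and 0 to 1 with single omissions, in place of 0. The causes were not tested.

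Deviations from the group means of arrays with the same replicate number correlated at -0.09 to 0.18. Weak correlations of this kind do not show that the samples were unpaired. The globin genes Hbb-y, Hba-x and Hbb-bh1 were higher in replicates 1 and 2 than in 3 and 4 in both XY FOXL2+ and XY control gonads. The replicate block changed no call of the 7 genes but that of Meioc against XX control gonads, ended those of Rad21 (0.0596) and Smad7 (0.0813), and added Sycp2 (0.0448), Smc3 (0.0437) and Piwil4 (0.0233). The choice of the cluster with the lowest mean was not run, since none of the 7 genes has several clusters. The sensitivity of the list genes and list counts was added after seeing the data. Signals near 6 cannot be told from those of silent genes. This limits Stra8, Meioc, Figla, Meiob and Bmp2 in XY control gonads, and Nanos2 and Lefty2 in XX control and XY FOXL2+ gonads.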
